A study of Homo sapiens with 4 samples.

Results

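The surface antigens of myeloma cells examined here are the products of 9 genes. Of these, 7 encode plasma cell antigens at which therapies of the disease are aimed (TNFRSF17, TNFRSF13B, SLAMF7, CD38, SDC1, GPRC5D and FCRL5), and 2 encode B cell antigens that were set beside them as negatives (MS4A1 and CD27). The genes were matched by symbol in the annotation of the array platform, and each was represented by the transcript cluster, the probe set for a whole gene, that carries only its symbol and has the highest mean over the 4 arrays. In this way 8 of the 9 genes were measured, among 22411 genes in all. TNFRSF13B, which encodes the receptor TACI, lay only on a cluster that carries several symbols, so it has no value here.

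The cells were U266, a human multiple myeloma line, and the groups were cells exposed to trabectedin, an antitumour agent that attaches to DNA in its minor groove, and cells given PBS, each for 24 h. The dose of trabectedin stands as 2.5 nM in the sample labels and as 2.5 μM in the treatment protocol. RNA of 2 samples a group was hybridized to Affymetrix Human Transcriptome Arrays 2.0, and the authors deposited log2 values made by RMA. All samples are of a single line with no genetic difference between the groups, and according to the methods the cells stem from different experiments, but not which samples came from the same experiment. A difference of 1 on the log2 scale is a 2-fold difference in signal. Values of different probe sets are signals and not amounts of transcript, so an order of levels between genes is an order of signals, and no value here measures protein on the cell surface.

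Plasma cells lose most surface proteins of the B cell as they mature and gain others, and antibodies, antibody conjugates and engineered T cells have been directed at these. BCMA, the product of TNFRSF17, and TACI are receptors for the cytokines BAFF and APRIL, which keep plasma cells alive. SLAMF7 is a receptor of the SLAM family, CD38 an enzyme that consumes NAD outside the cell, syndecan-1 (SDC1) a proteoglycan that carries heparan sulfate chains, GPRC5D an orphan receptor of the G protein-coupled kind, and FCRL5 a receptor related to those for immunoglobulin.

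SDC1 and TNFRSF17 had the highest signals of the antigen genes. SDC1 stood above 97.1% and 96.9% of all genes on the trabectedin arrays and above 98.1% and 97.5% on the control arrays, and TNFRSF17 above 97.1% and 96.8% with trabectedin and 97.3% and 96.6% in control. GPRC5D, SLAMF7 and CD38 followed, with means over the 4 arrays of 10.13, 9.75 and 8.22 on the log2 scale, and the ranges of GPRC5D and SLAMF7 overlapped. Since no detection p is given, 17 genes that other tissues use, such as albumin (ALB) and the cardiac myosin MYH6, were taken as the background, and their log2 values ran between 3.87 and 5.47. On all 4 arrays 6 of the 8 antigen genes exceeded every such gene. FCRL5 did so by as little as 0.13, whereas SDC1, TNFRSF17, GPRC5D, SLAMF7 and CD38 were at least 2.80 above. The B cell antigens MS4A1 and CD27 lay within the background on each array.

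**Figure D1:**
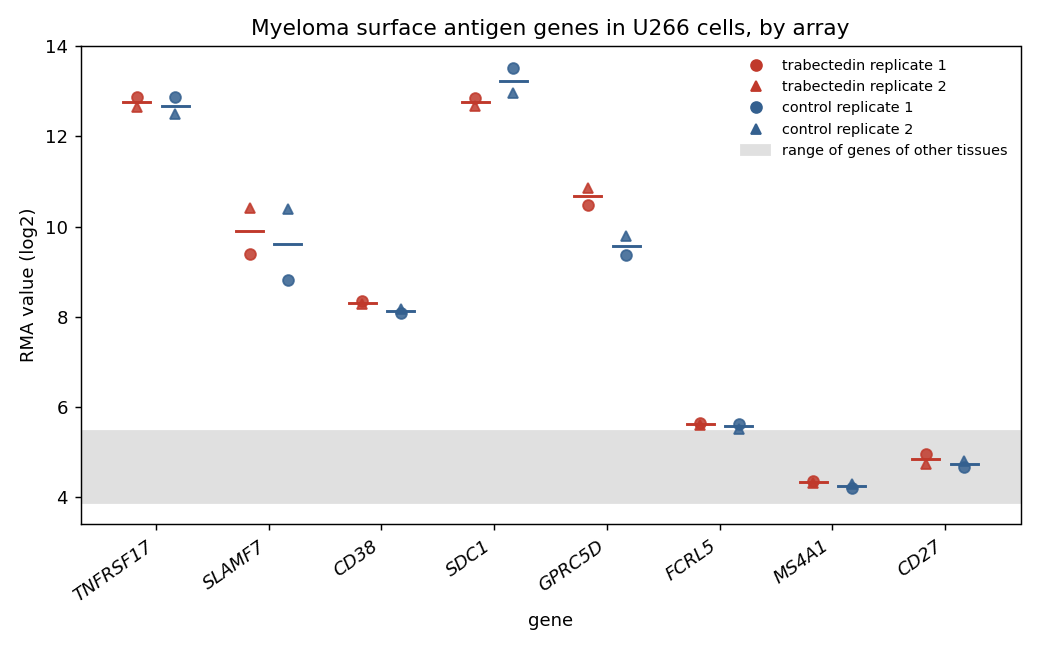
Log2 RMA value (vertical axis) of the 8 measured antigen genes (horizontal axis) on each array, with trabectedin left of control, replicates as points and group means as lines; the grey band spans the 17 genes of other tissues, 3.87 to 5.47. SDC1 and TNFRSF17 lie near 13, MS4A1 and CD27 lie in the band, and only for CD38, SDC1, GPRC5D and MS4A1 do the groups not overlap.

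With trabectedin, GPRC5D was the only antigen gene with a difference of at least 1.5-fold, and its direction was up. The largest negative difference was that of SDC1, and the differences of the other 6 genes were between 0.05 and 0.30 on the log2 scale. By limma with Benjamini-Hochberg adjustment over all genes, 0 of the 8 passed at an adjusted p under 0.05, as did 0% of all genes. At an unadjusted p under 0.05 limma called 1 antigen gene, GPRC5D, against 14% of all genes (1635 higher and 1501 lower), and 0 genes in all passed the test that the methods name after the same adjustment. A difference of at least 1.5-fold upward was found in 1 of the 8 antigen genes and 2.8% of all genes, and a difference of that size downward in 0 antigen genes and 4.63% of all genes. The groups did not overlap, with trabectedin higher, in 3 antigen genes (CD38, GPRC5D and MS4A1), against 35.8% of all genes, and with trabectedin lower in 1 (SDC1), against 13.5%. The median log2 difference of the antigen genes was 0.09 and that of all genes 0.10. With 2 arrays against 2 an exact permutation test, two-sided, cannot give a p below 0.333, which is the value for CD38, SDC1, GPRC5D and MS4A1. Because the samples are of whole cultures, fewer cells of a kind and less RNA per cell cannot be told apart.

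**Figure D2:**
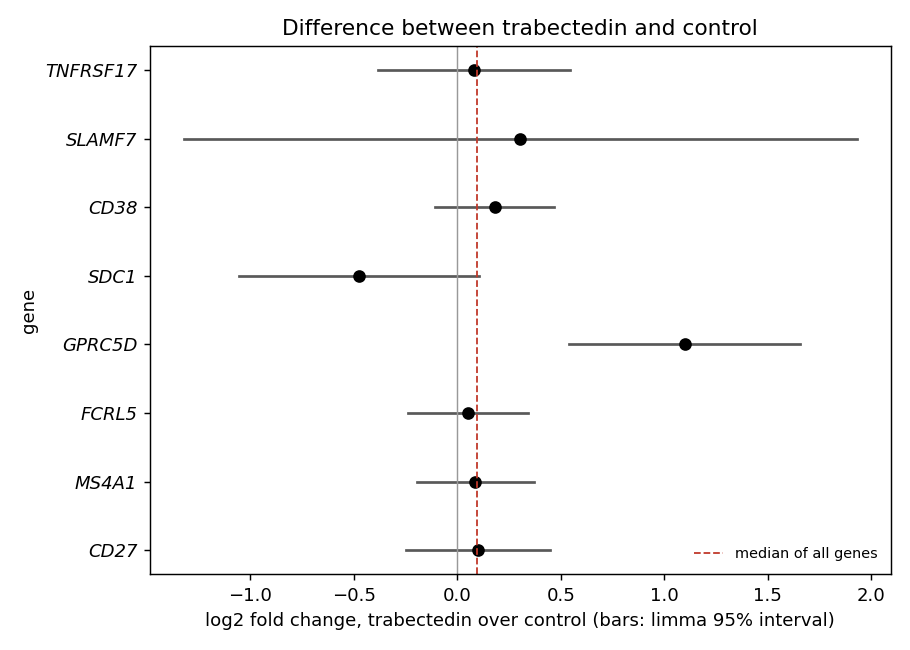
Log2 fold change of trabectedin over control (horizontal axis) for each antigen gene (vertical axis), with the 95% interval of the limma fit as a bar and the median of all genes, 0.10, as a dashed line. The interval of GPRC5D, 0.54 to 1.66, alone lies clear of 0, and that of SLAMF7 is the widest.

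TNFRSF17, the gene of BCMA, had log2 values of 12.87 and 12.66 with trabectedin, against 12.88 and 12.49 in control. The groups overlapped, and the 2 control arrays lay further apart than the group means. The log2 fold change was 0.08 (standard error, SE, 0.18, 95% interval -0.38 to 0.55, limma adjusted p = 0.845), with a sign that turned to -0.11 when the arrays were scaled to ribosomal protein genes and to -0.0029 when quantile normalization was repeated. A change of 1.5-fold or more in either direction thus lies outside the interval, which ran from 0.767-fold to 1.46-fold. Of 15 measured genes of the BCMA and TACI pathway (ligands, adaptors and enzymes that cleave the receptors), 0 passed the test, and the median log2 difference was 0.02. By at least 1.5-fold 1 was higher and 2 were lower, against 2.8% and 4.63% of all genes. The gene of ADAM10, the protease that sheds TACI, had log2 values of 11.25 and 11.41 with trabectedin and 12.30 and 12.05 in control. Both trabectedin arrays were below both control arrays, with a log2 fold change of -0.84 (SE 0.14, adjusted p = 0.113). The gamma-secretase that cuts BCMA off the membrane was represented by 5 of its subunit genes, of which NCSTN, the gene of nicastrin, and PSENEN had the highest signals of the pathway. NCSTN had log2 values of 12.46 and 12.17 with trabectedin and 12.12 and 11.84 in control, a log2 fold change of 0.33 (adjusted p = 0.451). PSENEN had 15.02 and 15.37 with trabectedin and 14.94 and 14.92 in control, with a log2 fold change of 0.26 (adjusted p = 0.511). In neither of these genes did the groups overlap, with trabectedin higher. Of the other subunit genes, PSEN2 did not overlap in the opposite direction (log2 fold change -0.11), and APH1A (0.21) and APH1B (-0.03) overlapped. Among the signal adaptors of the TRAF family the differences ran both ways. TRAF3, which holds back NF-κB signalling by the alternative route, had log2 values of 9.29 and 9.19 with trabectedin and 10.17 and 9.99 in control, that is a log2 fold change of -0.84 (SE 0.12, adjusted p = 0.0919). TRAF6, a ubiquitin ligase upstream of NF-κB, had 11.13 and 10.85 with trabectedin and 10.07 and 10.52 in control, a log2 fold change of 0.69 (SE 0.20, adjusted p = 0.25) that was 0.47 without control replicate 1 and 0.92 without control replicate 2. Their groups did not overlap in either case. The ligand genes TNFSF13B (BAFF) and TNFSF13 (APRIL) were close to the background, with log2 values between 5.50 and 5.98 on every array.

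SLAMF7 had log2 values of 9.40 and 10.41 with trabectedin, against 8.81 and 10.39 in control. Within each group the second replicate was the higher, by 1.01 with trabectedin and by 1.58 in control, and these gaps exceeded those of 98.7% and 99.7% of all genes. The log2 fold change of 0.30 (SE 0.62, 95% interval -1.32 to 1.93, adjusted p = 0.833) was therefore far inside the spread between replicates, and its sign turned when a library was left out (-0.49 without control replicate 1 and -0.20 without trabectedin replicate 2). The interval, from 0.40-fold to 3.81-fold, leaves the response of this gene undetermined at this number of arrays in a fit without a block. With the replicate number as a block, the log2 fold change was the same and the limma adjusted p was 0.306. Of the 10 other measured genes of the SLAM family and its adaptors, 0 passed the test. By at least 1.5-fold 0 were higher and 0 were lower, against 2.8% and 4.63% of all genes. CD48, a SLAM receptor that is anchored in the membrane by a lipid, had log2 values of 11.60 and 11.81 with trabectedin and 12.15 and 12.03 in control (log2 fold change -0.38, adjusted p = 0.312). SLAMF6 had 10.46 and 10.39 with trabectedin and 11.51 and 10.45 in control, a difference of -0.55 that was -0.02 without control replicate 1 and -1.08 without control replicate 2. Control replicate 1 was thus the lowest array for SLAMF7 and the highest for SLAMF6. LY9, next to SLAMF7 in the genome, differed by 0.06, with log2 values from 7.96 to 8.26.

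**Figure D3:**
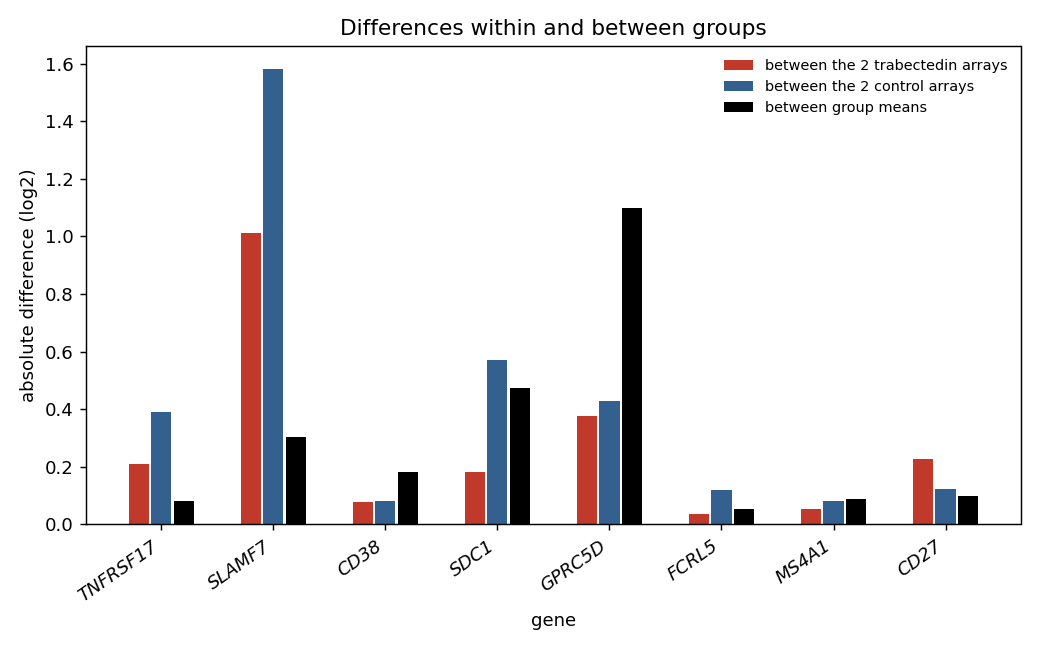
Absolute log2 difference (vertical axis) between the 2 trabectedin arrays, between the 2 control arrays and between the group means, for each antigen gene (horizontal axis). The difference between groups exceeds both gaps between replicates in GPRC5D, CD38 and MS4A1, while in SLAMF7 the replicates differ by 1.01 and 1.58 and the group means by 0.30.

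CD38 had log2 values of 8.35 and 8.27 with trabectedin, against 8.09 and 8.17 in control. Both trabectedin arrays were above both control arrays by a small margin, and the log2 fold change was 0.18 (SE 0.11, 95% interval -0.11 to 0.47, adjusted p = 0.522), a sign that turned to -0.01 with scaling to ribosomal protein genes. In fold terms the interval ran from 0.93 to 1.38. Of 9 measured genes for NAD supply and adenosine-making ectoenzymes, with the relatives and partners of CD38, 0 passed the test. By at least 1.5-fold 1 was lower, against 4.63% of all genes. This was ENTPD1, the gene of CD39, which breaks down ATP outside the cell. It had log2 values of 6.10 and 6.14 with trabectedin and 6.95 and 6.53 in control (log2 fold change -0.62, SE 0.17, adjusted p = 0.231), with -0.41 without control replicate 1 and -0.83 without control replicate 2. NT5E, the gene of CD73, which makes adenosine from AMP, had 9.48 and 9.10 with trabectedin and 9.93 and 9.35 in control, and the groups overlapped. PECAM1, a binding partner of CD38, had 8.39 and 8.65 with trabectedin and 8.96 and 9.13 in control (log2 fold change -0.53, adjusted p = 0.228). NAMPT, the enzyme that limits NAD synthesis from nicotinamide, had 10.02 and 10.19 with trabectedin and 9.81 and 9.81 in control (log2 fold change 0.29, adjusted p = 0.37). BST1, the paralog beside CD38 on its chromosome, lay within the background on all arrays, with log2 values of 4.76 to 4.95.

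SDC1 had log2 values of 12.86 and 12.67 with trabectedin, against 13.52 and 12.95 in control. Both trabectedin arrays were below both control arrays, but the 2 control arrays were 0.57 apart, more than the difference of the group means, 12.76 ± 0.13 with trabectedin and 13.24 ± 0.40 in control (SD, n = 2 each). The log2 fold change was -0.47 (SE 0.22, 95% interval -1.05 to 0.11, limma adjusted p = 0.43), that is 0.72-fold. It ran from -0.19 without control replicate 1 to -0.76 without control replicate 2, so its size rests on which control array is kept. Larger differences stood among the genes that build the heparan sulfate chains of syndecans. Of 18 measured genes of syndecans, their chains and their cleavage, 0 passed the test. By at least 1.5-fold 3 were lower and 1 was higher, against 4.63% and 2.8% of all genes. The 3 lower genes are each over 100 kb long, a class set out below. EXT1, which together with EXT2 forms the polymerase that elongates the chains, had log2 values of 6.17 and 7.20 with trabectedin and 9.54 and 9.61 in control. The log2 fold change of EXT1 was -2.89 (SE 0.35, limma adjusted p = 0.0762), which is 7.40-fold more signal in control. EXT2 had 7.61 and 7.62 with trabectedin and 8.84 and 8.68 in control (log2 fold change -1.14, SE 0.11, adjusted p = 0.0762). In both polymerase genes every trabectedin array lay below every control array. XYLT1, a xylosyltransferase that starts the chains on the core protein, had 8.62 and 9.13 with trabectedin and 11.89 and 11.04 in control, a log2 fold change of -2.59 (SE 0.34, adjusted p = 0.0813). Its paralog XYLT2, which does the same step, had 8.47 and 8.37 with trabectedin and 8.64 and 8.38 in control, and these groups overlapped. The related genes EXTL2 and EXTL3 had log2 fold changes of 0.33 and -0.13. SDCBP, the gene of syntenin, which binds the cytoplasmic tail of syndecans, had 12.01 and 11.95 with trabectedin and 11.11 and 11.30 in control (log2 fold change 0.78, SE 0.12, adjusted p = 0.101). Heparanase (HPSE), which trims the chains, differed by 0.10, and the genes of the other syndecans, SDC2, SDC3 and SDC4, by 0.16 to 0.21. SDC2 lay within the background and SDC3 exceeded it by as little as 0.21. SDC4 was -0.16 without control replicate 1 and 0.55 without control replicate 2.

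**Figure D4:**
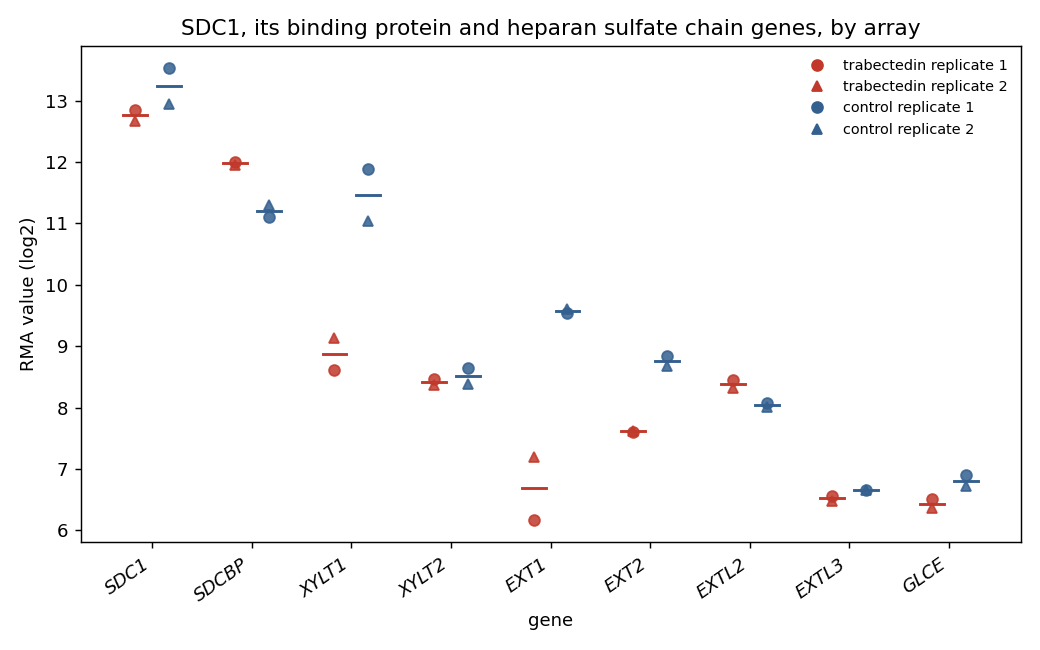
Log2 RMA value (vertical axis) of SDC1, of its binding partner SDCBP and of genes that build heparan sulfate chains (horizontal axis), with trabectedin left of control, replicates as points and group means as lines. XYLT1, EXT1 and EXT2 differ by -2.59, -2.89 and -1.14 on the log2 scale, trabectedin over control, while XYLT2 overlaps between the groups.

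GPRC5D had log2 values of 10.49 and 10.86 with trabectedin, against 9.36 and 9.79 in control. The lowest trabectedin array was above the highest control array, and the group means of 10.68 ± 0.27 with trabectedin and 9.58 ± 0.30 in control (SD, n = 2 each) were further apart than the replicates of either group. The log2 fold change was 1.10 (SE 0.21, 95% interval 0.54 to 1.66), a 2.14-fold higher signal, with a limma p of 0.0042 before adjustment and an adjusted p = 0.135. A difference of at least 2-fold upward was found in 0.183% of all genes (41 genes), and GPRC5D stood at place 21 of 22411 by log2 fold change. The value lay between 0.89 and 1.31 when any array was left out. It was 1.02 with repeated quantile normalization and 0.90 with scaling to ribosomal protein genes. The other alternatives leave the value of this gene as it is and change only its test. Over the alternatives that kept all 4 arrays, the adjusted p ran from 0.0188 to 0.477. The lowest of these came from the fit with the replicate number as a block, the only setting in which it passed 0.05. The 2 measured relatives GPRC5B and GPRC5C lay within the background, with log2 values of 4.53 to 4.78 and differences of 0.04 and 0.05. The genes on both sides of GPRC5D, which were picked after their values were seen, were GPRC5D-AS1 and HEBP1. GPRC5D-AS1, an antisense gene, differed by -0.04 and HEBP1, a heme-binding protein, by 0.23, against 1.10 for GPRC5D. Over the 4 arrays, each gene centred on its mean, the patterns nearest to that of GPRC5D by Euclidean distance were those of IGLV7-46 (distance 0.15 on the log2 scale), a lambda light chain variable segment of a family whose similar members may share probes, NT5C3A (0.17), a nucleotidase, and RUNX1-IT1 (0.19), a noncoding transcript. NT5C3A had log2 values of 9.56 and 9.99 with trabectedin and 8.45 and 9.07 in control. IGLV7-46 had 5.02 and 5.49 with trabectedin and 3.89 and 4.51 in control, values that lie within the background or, for the highest, at its upper edge.

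The upstream windows of GPRC5D and SDC1 are shown because these antigen genes had the largest differences, in opposite directions. The 250 bases before the start were taken from RefSeq (build GRCh38.p14). An entry existed for 6 of the 9 antigen genes, and SDC1 had 2 starts. Capitals mark the letters TATAAA and GGGCGG on either strand, searched together with TGACGT, which none of these windows holds, and no match overlaps another. All lie on the minus strand and are written 5′ to 3′ along the gene, at chr12:12952171-12952420 for GPRC5D and at chr2:20225131-20225380 and chr2:20225476-20225725 for SDC1.
GPRC5D: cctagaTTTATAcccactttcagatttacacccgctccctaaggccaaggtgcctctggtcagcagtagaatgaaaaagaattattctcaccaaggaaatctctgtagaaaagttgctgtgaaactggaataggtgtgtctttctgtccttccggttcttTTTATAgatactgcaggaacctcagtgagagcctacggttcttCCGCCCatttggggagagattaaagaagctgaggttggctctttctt
SDC1, start 1: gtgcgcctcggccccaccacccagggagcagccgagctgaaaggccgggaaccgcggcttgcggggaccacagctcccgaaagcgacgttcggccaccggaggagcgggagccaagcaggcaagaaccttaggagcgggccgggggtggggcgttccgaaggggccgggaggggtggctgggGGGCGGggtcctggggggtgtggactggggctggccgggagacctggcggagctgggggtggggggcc
SDC1, start 2: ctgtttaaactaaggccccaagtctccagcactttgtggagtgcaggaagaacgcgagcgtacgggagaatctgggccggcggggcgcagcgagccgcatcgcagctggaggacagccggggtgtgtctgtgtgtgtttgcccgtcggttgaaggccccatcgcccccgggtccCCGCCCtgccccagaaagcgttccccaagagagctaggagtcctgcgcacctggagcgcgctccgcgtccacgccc
The GPRC5D window held 44.4% G and C and 4 CpG, against a median of 58% and 11 CpG over 35116 windows of this length. It carried TATAAA at 2 places, both on the opposite strand, and GGGCGG at 1. The SDC1 windows held 75.2% and 66.4% G and C with 21 and 23 CpG, and each carried GGGCGG at 1 place. TATAAA occurs in 10.7% of all windows, GGGCGG in 42.6% and TGACGT in 7.10%. These matches describe letters, and no binding was measured.

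FCRL5 had log2 values of 5.64 and 5.60 with trabectedin, against 5.62 and 5.51 in control. The groups overlapped at a level just above the background (log2 fold change 0.05, SE 0.11, adjusted p = 0.835), and the sign turned to -0.14 with scaling to ribosomal protein genes and to -0.05 with repeated quantile normalization. The 7 other measured genes of the family lay lower still. Of these 0 were higher and 0 were lower by 1.5-fold, against 2.8% and 4.63% of all genes, and 6 exceeded the background on no array. FCRL6 had log2 values of 5.42 and 5.32 with trabectedin and 5.26 and 5.19 in control, and FCRLA had 5.40 and 5.09 with trabectedin and 4.92 and 5.06 in control. MS4A1, the gene of CD20, had 4.36 and 4.30 with trabectedin and 4.20 and 4.28 in control. Its groups did not overlap, but the log2 fold change of 0.09 (adjusted p = 0.729) lay at the background level and turned to -0.11 with scaling to ribosomal protein genes and to -0.01 with repeated quantile normalization. CD27, a receptor for CD70, had 4.95 and 4.72 with trabectedin and 4.67 and 4.80 in control, a log2 fold change of 0.10 (adjusted p = 0.75) with overlapping groups that turned to -0.10 and to -0.01 in these settings. Its ligand CD70 was far above the background, with log2 values of 12.99 and 12.99 with trabectedin and 12.94 and 13.12 in control.

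The genes of other surface proteins that have been named as targets or are used to identify myeloma cells differed in both directions. Of 20 measured genes, 0 passed the test, and the median log2 difference was 0.11. By at least 1.5-fold 1 was higher and 1 was lower, against 2.8% and 4.63% of all genes. The groups did not overlap in 7 with trabectedin higher and in 5 with trabectedin lower, against 35.8% and 13.5% of all genes. ITGB7, the integrin β7 chain, had log2 values of 10.62 and 10.76 with trabectedin and 10.13 and 10.05 in control. The log2 fold change of ITGB7 was 0.60 (SE 0.12, adjusted p = 0.135), and was 0.40 with scaling to ribosomal protein genes. IL6R, the receptor for interleukin 6, had 12.90 and 12.55 with trabectedin and 13.59 and 13.08 in control, a log2 fold change of -0.61 (SE 0.23, adjusted p = 0.345) that was -0.36 without control replicate 1 and -0.86 without control replicate 2. In both genes the groups did not overlap. CD28, a costimulatory receptor, had 14.98 and 14.45 with trabectedin and 15.14 and 14.51 in control, and HLA-DRA, a class II chain, had 14.70 and 14.70 with trabectedin and 14.30 and 14.60 in control. These were the highest signals among the surface genes, and their log2 fold changes were -0.11 and 0.25. The adhesion molecule ICAM1, just short of 1.5-fold and named after its value was seen, had 11.86 and 12.02 with trabectedin and 12.50 and 12.49 in control (log2 fold change -0.56, adjusted p = 0.154).

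The identity of the cells was checked by marker genes. All 11 plasma cell markers, 4 of which are antigen genes, exceeded the background on every array, with JCHAIN, the joining chain of polymeric immunoglobulin, at 17.44 and 17.50 with trabectedin and 17.53 and 17.34 in control. The lowest of the 11, MZB1, ran from 6.14 to 6.43 over the 4 arrays. Of the markers of other cells, 3 of 11 B cell, 1 of 10 T and NK cell, 2 of 9 myeloid and 1 of 8 stromal, endothelial, erythroid and platelet genes did so on every array, and the T, NK, myeloid and stromal genes reached at most 6.47. Of the 11 plasma cell markers, 0 were higher and 2 were lower by at least 1.5-fold, against 2.8% and 4.63% of all genes. The groups did not overlap in 1 with trabectedin higher and in 4 with trabectedin lower, against 35.8% and 13.5%. PRDM1 (log2 fold change -0.16), MZB1 (-0.11) and DERL3 (-0.16) overlapped between the groups, and POU2AF1 (-0.53) did not. The 2 lower markers were XBP1 and IRF4. XBP1, a factor for secretory capacity, had log2 values of 12.38 and 12.29 with trabectedin and 13.35 and 12.89 in control (log2 fold change -0.78, adjusted p = 0.175). IRF4, on which myeloma cells depend, had 13.84 and 13.32 with trabectedin and 14.85 and 13.90 in control (log2 fold change -0.80, adjusted p = 0.424), with -0.33 without control replicate 1 and -1.27 without control replicate 2. In XBP1 and IRF4, as in SDC1, both trabectedin arrays were lower than both control arrays and control replicate 1 was the highest. The B cell kinase BLK shared this order, with 9.59 and 9.17 with trabectedin and 10.94 and 9.97 in control (log2 fold change -1.08, adjusted p = 0.305), with -0.59 without control replicate 1 and -1.57 without control replicate 2. With the replicate number as a block, limma called all 3 of XBP1 (adjusted p = 0.0366), IRF4 (adjusted p = 0.0391) and BLK (adjusted p = 0.0305). CD79B, part of the B cell receptor, ran between 8.79 and 9.20 over the 4 arrays, with overlapping groups.

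Of the 7 pathway and surface genes lower by at least 1.5-fold, all but IL6R (64.1 kb, log2 fold change -0.61) were over 100 kb long. Over all genes with a length in RefSeq, the median log2 fold change was 0.13 in genes under 10 kb, 0.13 in genes of 10 to 30 kb, 0.07 in genes of 30 to 100 kb and -0.08 in genes of 100 kb or more. In the longest class 26.0% of genes were lower by at least 1.5-fold, against 0.721%, 0.40% and 2.31% in the shorter classes. The measured antigen genes were between 2.86 kb (TNFRSF17) and 74.9 kb (CD38) long, so that none belongs to the longest class. The cell type markers lower by at least 1.5-fold, XBP1 (6.01 kb), IRF4 (19.7 kb) and BLK (70.2 kb), are also outside it. EXT1 (317 kb), XYLT1 (369 kb), EXT2 (156 kb), ADAM10 (161 kb), TRAF3 (134 kb) and ENTPD1 (183 kb) do belong to it. So do pathway and surface genes that did not reach 1.5-fold. These are NCAM1 (log2 fold change -0.17), EXTL3 (-0.13), GLCE (-0.37), SDC2 (0.21) and ENPP3 (0.15), of which SDC2 and ENPP3 lay within the background. SDC1 is 24.7 kb and GPRC5D 11.6 kb long. Next to TNFRSF17 lies SNX29, a sorting nexin gene of 598 kb that was picked after its value was seen. SNX29 had log2 values of 7.89 and 8.38 with trabectedin and 11.37 and 10.52 in control, a log2 fold change of -2.81 (SE 0.34, adjusted p = 0.0762), while the difference of TNFRSF17 was 0.08 and that of GSPT1, its neighbour on the other side, was -0.08. Whether length plays a part in these differences was not tested.

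**Figure D5:**
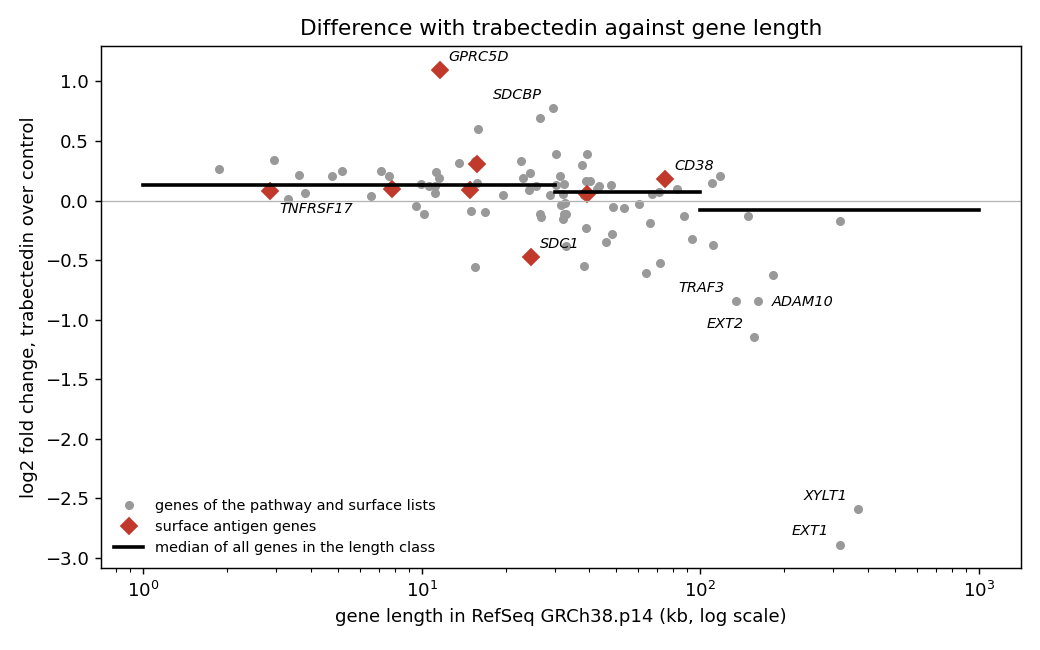
Log2 fold change of trabectedin over control (vertical axis) against gene length in kb (horizontal log axis) for the antigen genes (diamonds) and the genes of their pathways (grey points), with the median of all genes in each length class as a line. The antigen genes end at 74.9 kb, and EXT1, XYLT1, EXT2, TRAF3 and ADAM10 are among the genes in the class of 100 kb or more, whose median is -0.08.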

How the data were processed

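Gene expression was measured on 4 arrays, 2 of trabectedin-treated and 2 of control U266 cells. The authors processed the scans in Affymetrix Expression Console by RMA and deposited log2 values of 70523 features. Which software version and library annotation they used is not given in the sources used here. On each array 843 to 899 features exceeded 16, so that a rescaling not described lies between the 16 bit scanner and these values. Symbols came from the platform annotation, brought up to date with RefSeq on GRCh38.p14, which gave a length for 22404 genes. Features without a symbol (45199) or with several (1543) were dropped, and of 528 genes with several clusters the one with the highest mean was kept.

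The tool for the comparison was limma 3.58.1 under R 4.3.3 (lmFit and eBayes, without a block), with Benjamini-Hochberg adjustment over 22411 genes at a threshold of 0.05. The step was tested on simulated data. Tables were made with Python 3.11.15, pandas 2.3.3 and numpy 2.4.6. The number of arrays limits the precision, and no p measures more than the spread between these samples. The 1.5-fold limit is that of the methods. The 9 antigen genes and the gene lists (7 of pathways and other surface proteins, the others of cell type markers and of genes of other tissues, in all 151 of 170 genes measured) were chosen with earlier results of these data known. The genes named are the antigen genes, from each list at most the 4 largest differences of at least 1.5-fold without overlap of the groups and the 2 highest signals, the 3 patterns nearest to the antigen gene with the largest difference, and those said to be picked later. PECAM1, BST1, LY9, XYLT2, EXTL2, EXTL3, HPSE, SDC2, SDC3, SDC4, CD70, TNFSF13B, TNFSF13, PSEN2, APH1A, APH1B, GSPT1, NCAM1, GLCE, ENPP3, PRDM1, MZB1, DERL3 and POU2AF1 were also added after their values were seen. As alternatives, quantile normalization was repeated, arrays were scaled to 46 ribosomal protein genes, clusters were averaged, genes at or below the median level were dropped, a block for the replicate number or a mean-variance trend was added, each array was left out, and the methods' t-test was run.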

Additional observations from a re-analysis of the deposited data

How the results depend on the processing

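Each value was recomputed under up to 12 alternatives. Scaling to ribosomal protein genes moved the median of all genes by -0.20 on the log2 scale, so that small differences changed sign in it. SDC1 stayed lower and GPRC5D higher with trabectedin in every alternative that can move their values. These are the fits with an array left out, repeated quantile normalization and ribosomal scaling. The other alternatives leave the values of both genes as they are, so they say nothing about direction. With ribosomal scaling the sign turned for TNFRSF17 (-0.11), CD38 (-0.014), FCRL5 (-0.14), MS4A1 (-0.11) and CD27 (-0.10), and with repeated quantile normalization for TNFRSF17 (-0.0029), FCRL5 (-0.050), MS4A1 (-0.011) and CD27 (-0.012). When each array was left out in turn it turned for TNFRSF17 (range -0.11 to 0.28), SLAMF7 (-0.49 to 1.10), FCRL5 (-0.0054 to 0.11) and CD27 (-0.015 to 0.21). The cause was not tested.

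Without each array in turn, 1 to 2 antigen genes were higher and 0 to 1 lower by at least 1.5-fold. The added ones were SLAMF7, without control replicate 2 or trabectedin replicate 1, and SDC1, without control replicate 2. SDC1 was also the 1 lower gene with repeated quantile normalization and the 1 with ribosomal scaling. Of the 81 measured pathway and surface genes, limma called 5 with ribosomal scaling, and the methods' t-test called 14 at its own threshold. With ribosomal scaling 0 of them rather than 3 were higher by 1.5-fold. Over all 22411 genes, 13 were called higher and 676 lower by limma with ribosomal scaling. By the methods' t-test 1400 higher and 992 lower genes passed its own threshold, and 0 passed after adjustment.

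The labels do not say that samples with the same replicate number belong together. The differences of replicate 2 from replicate 1 correlated between the groups over genes (r = 0.56, genes not being independent). A block for the replicate number brought limma to 499 higher and 893 lower genes of 22411. Among them were 1 of the 8 antigen genes, GPRC5D (adjusted p = 0.0188), and 8 of the 81 measured pathway and surface genes. These 8 were TRAF3, ADAM10, EXT1, EXT2, XYLT1, SDCBP, ITGB7 and IL6R. Of the cell type markers it also called XBP1, IRF4 and BLK, all lower. For SDC1 the adjusted p was 0.106 in this fit. FCRL5, MS4A1 and CD27 lie at or near the background, which limits what a difference in them can show.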
